A study of Homo sapiens with 36 samples.

Results

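The 41 mitosis and spindle genes described here encode the kinases that start mitosis, the motors and scaffolds of the spindle, the kinetochore that ties chromosomes to it, the checkpoint that waits for every chromosome, and the proteases and motors that end division. They were chosen as a list of symbols and found by Ensembl identifier in a table of 61544 genes; 41 of 41 were present, and 41 of 41 were among the 20767 genes that passed the filter on low counts. Polyadenylated RNA came from MIA PaCa-2, a human pancreatic carcinoma cell line that carries a deletion that includes CDKN2A. Each of 3 lines held Cas9 under doxycycline (dox) control with a guide: a non-targeting guide (the control line), a guide against PELO, or a guide against HBS1L. PELO and HBS1L proteins act as a pair that releases ribosomes stalled on messenger RNA, and the design asks what these cells do when either is lost. All lines grew in RPMI with serum free of tetracycline, received either no dox or 2 µg/mL dox, and were taken at 48 h or 96 h. This gave 12 groups of 3 libraries, 36 in all, and the control line with dox shares the drug and the nuclease with the lines targeted at PELO and HBS1L. The labels do not say whether a line was a clone or a pool, whether the 3 libraries of a group were separate cultures, or what share of cells lost the gene, and p-values therefore cover the spread from library to library, which may be technical.

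Mitotic genes are transcribed late in the cell cycle. Cyclin B bound to CDK1 drives entry into mitosis, Aurora A and PLK1 build the spindle poles, and the checkpoint proteins hold the anaphase-promoting complex inactive until every kinetochore is attached. CDC20 and UBE2C then let that complex destroy securin (PTTG1) and cyclin B, and separase (ESPL1) opens cohesin. Their promoters are known for a shared element, TTTGAA, called the cell cycle genes homology region, through which the DREAM repressor complex silences them in resting cells and the MuvB complex with MYBL2 and FOXM1 activates them. CCAAT boxes, bound by NF-Y, often stand beside it. In bulk RNA, fewer cells in mitosis and less message per mitotic cell cannot be told apart.

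The promoter sequences show that element in part of the genes whose values follow. RefSeq promoters (GRCh38.p14, 250 bases before to 50 bases after the start) were found for 34 of the 41 genes. TTTGAA, searched on both strands, was in 23 of them (67.6%), against 15.4% of 27305 promoters of the same length and 1 of 31 promoters of DNA replication genes (3.2%). CCAAT, searched the same way, was in 26 (76.5%), against 35.7% of all promoters and 54.8% of those of the replication genes. Promoters with both made up 55.9% of the 34 and 6.1% of all. Shown are the 120 bases just before the start in 6 genes, on the strand of the gene and read 5′ to 3′. Capitals mark TTTGAA, or TTCAAA where it lies on the other strand, and mark CCAAT, or ATTGG where that one does. These are ESPL1 (chr12:53268179-53268298), ECT2 (chr3:172750606-172750725), HMMR (chr5:163460512-163460631), KIF11 (chr10:92593010-92593129), CENPA (chr2:26785936-26786055) and PLK1 (chr16:23678769-23678888), each on the + strand. They are the 6 with the smallest adjusted p in the PELO response beyond the control line at 96 h, among genes given library by library below that hold the element in those 120 bases. In that response, ESPL1 is a gene with a large fall, HMMR one that rose at both times, and CENPA one that rose at 48 h and fell at 96 h.
ESPL1: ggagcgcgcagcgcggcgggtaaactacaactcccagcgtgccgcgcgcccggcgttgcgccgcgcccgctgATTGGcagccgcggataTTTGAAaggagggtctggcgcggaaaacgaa
ECT2: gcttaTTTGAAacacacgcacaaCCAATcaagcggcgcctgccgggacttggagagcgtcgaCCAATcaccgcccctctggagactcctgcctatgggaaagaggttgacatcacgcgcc
HMMR: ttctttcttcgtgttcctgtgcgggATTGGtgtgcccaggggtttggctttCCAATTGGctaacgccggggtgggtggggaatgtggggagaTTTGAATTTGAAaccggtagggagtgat
KIF11: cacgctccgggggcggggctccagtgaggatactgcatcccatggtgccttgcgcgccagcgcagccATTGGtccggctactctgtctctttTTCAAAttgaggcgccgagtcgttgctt
CENPA: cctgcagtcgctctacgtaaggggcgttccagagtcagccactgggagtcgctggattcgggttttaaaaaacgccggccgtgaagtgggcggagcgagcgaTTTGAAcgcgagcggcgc
PLK1: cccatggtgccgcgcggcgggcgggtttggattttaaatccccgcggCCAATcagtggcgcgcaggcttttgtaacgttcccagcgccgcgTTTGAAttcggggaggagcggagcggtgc
In ESPL1, KIF11 and PLK1 the element began 31, 28 and 29 bases before the start, and in CENPA 18 bases before it. HMMR held it in tandem, at 28 and 22 bases, and its CCAAT at 69 bases overlaps an ATTGG at 66 bases. In ECT2 it stood 115 bases before the start, ahead of both CCAAT boxes of the stretch. A match is a run of letters and was not tested as a binding site.

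Libraries held 45356024 to 107436235 counts, with a median of 55222338; the highest was library 2 of the PELO line with dox at 96 h. HBS1L message fell in the HBS1L line with dox, with log2 changes beyond the control line of -1.67 ± 0.05 at 48 h and -1.77 ± 0.05 at 96 h (SE). PELO message gave no such check of its label: its log2 change beyond the control line in the PELO line was -0.13 ± 0.08 at 48 h and 0.01 ± 0.08 at 96 h (adjusted p = 0.185 and 0.916). The keratins KRT8, KRT18 and KRT19 were at 89.4 CPM (counts-per-million) or more in every group, while KRT7 was at 0.241 to 0.712 CPM and the epithelial genes EPCAM and CDH1 at 0.0239 CPM or less. Of 15 markers of fibroblasts, leukocytes and endothelium, 11 stayed at 0.937 CPM or less in every group, among them PTPRC, CD3E, PECAM1, KDR, DCN and LUM at 0.0221 CPM or less. The other 4 had group means of 30.7 to 242 CPM (COL1A2), 1.36 to 15.7 (COL3A1), 0.975 to 37.5 (CDH5) and 0.547 to 8.29 CPM (CD14), and their part in the results was not tested. Libraries of 48 h and 96 h carry numbers from separate blocks in the labels, so time cannot be told apart from batch; tests between times are of responses to dox, and levels set side by side over all 12 groups are a description. Library 3 of the PELO line without dox at 96 h stood apart from libraries 1 and 2 of its group. In it 39 of the 41 genes were below both, and the median ratio to the mean of both was 0.843. On the log2 scale its median deviation from that mean was -0.25 for the 41 genes and 0.02 over 12914 better expressed genes. The share of all genes below both was not computed. Counts over the 41 genes that rest on library 3, with the genes leading them, are given with and without it. The sets of genes by call at both times, the split by promoter element and the other gene lists at 96 h include it.

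The genes were strongly expressed, and their levels in the 12 groups spanned 1.51-fold (BUB3) to 3.20-fold (SPC24) between the lowest and the highest group mean. Levels are in CPM on TMM-scaled library sizes. Among the entry regulators, CCNB1 had group means of 332 to 533 CPM, CCNB2 72.8 to 132, and CCNA2, the cyclin of S phase and early mitosis, 70.004 to 149. CDK1 ranged over 58.04 to 134, and its activating phosphatases CDC25B and CDC25C over 248 to 402 and 31.97 to 51.8. FOXM1, which activates the late cell cycle genes, ranged over 99.9 to 205 CPM. The spindle pole kinase AURKA had 124 to 227 CPM, its activator TPX2 299 to 621 and PLK1 117 to 206. In the chromosomal passenger complex, which corrects faulty attachments, AURKB had 58.5 to 115, the scaffold INCENP 64.5 to 123 and survivin (BIRC5) 112 to 267 CPM. Per kilobase of the longest transcript, CCNB1 had the highest median level over groups, 196.3 CPM per kb, ahead of UBE2C at 184.7 and CDC20 at 180.0 CPM per kb. These 3 medians lie closer together than the range of group means of any of the 3.

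The checkpoint kinases BUB1, BUB1B and TTK had group means of 104 to 198, 50.1 to 91.1 and 50.99 to 96.1 CPM, and their partners BUB3 and MAD2L1 173 to 261 and 46.8 to 106 CPM. For the exit genes the ranges were 174 to 387 (CDC20), 113 to 253 (UBE2C), 72.2 to 159 (PTTG1) and 20.6 to 54.4 CPM (ESPL1). The centromeric histone CENPA ranged over 36.1 to 64.2 CPM, and the large kinetochore proteins CENPE and CENPF over 37.5 to 111 and 236 to 563 CPM. The 4 subunits of the NDC80 complex, which grips microtubules, had 76.2 to 125 (NDC80), 60.5 to 108 (NUF2), 10.1 to 32.2 (SPC24) and 21.5 to 52.9 CPM (SPC25). ESPL1 and CENPE were the lowest per kilobase, with medians of 6.54 and 9.44 CPM per kb, and SPC24 came next at 10.8 CPM per kb. Spindle assembly genes comprised the motors KIF11 (113 to 233 CPM) and KIF2C (105 to 196) and the microtubule binders NUSAP1 (53.03 to 98.4), HMMR (154 to 277), DLGAP5 (111 to 180.1) and ASPM (141 to 268). The midzone motors KIF20A and KIF23 had 88.6 to 223 and 74.8 to 128 CPM, the bundler PRC1 51.3 to 81.9, and the furrow proteins ECT2 and ANLN 205 to 391 and 146 to 363 CPM. TOP2A, which untangles sister DNA, had 483 to 881 CPM. Coordinates of the genes that recur most are whole gene spans on GRCh38 in the GENCODE 29 annotation. SPC24 lies at chr19:11131520-11155808 (minus strand), ESPL1 at chr12:53268299-53293643 (+ strand), KIF20A at chr5:138178719-138187715 (+ strand) and CENPA at chr2:26764289-26801067 (+ strand). TPX2 lies at chr20:31739271-31801805 (+ strand), UBE2C at chr20:45812576-45816957 (+ strand), AURKA at chr20:56369389-56392337 (minus strand) and HMMR at chr5:163460203-163491945 (+ strand). Reads of overlapping exons cannot be assigned with certainty. Exons of other genes cover 62.2% of the exonic length of NUSAP1 and 58.4% of that of PRC1. The largest overlap is with AC087721.2 for NUSAP1 and AC068831.7 for PRC1, each on the same strand. Overlap with other genes also covers 15.9% of FOXM1, 12.5% of PLK1 and 10.2% of BUB1B.

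The lowest group was the same for most of the genes. In 31 of 41 genes the lowest group mean was that of the control line without dox at 48 h, and in 7 it was that of the PELO line with dox at 96 h. The same count over all genes was not made, and setting groups of both times side by side is a description. The mean log2 CPM over the 41 genes was 6.53, 6.52 and 6.55 in the 3 control libraries without dox at 48 h and 6.78, 6.82 and 6.79 with dox. For the PELO line at 48 h it was 6.79, 6.82 and 6.76 without dox and 7.20, 7.18 and 7.17 with dox. In the HBS1L line at 48 h it was 6.85, 6.82 and 6.79 without dox and 6.95, 6.92 and 6.96 with dox. In each line at 48 h, every dox library lay above every no-dox library, and the PELO libraries with dox were the highest of that time. At 96 h the control line had 7.28, 7.22 and 7.22 without dox and 7.38, 7.30 and 7.31 with dox, and the HBS1L line 7.23, 7.29 and 7.20 and 7.19, 7.24 and 7.35. The PELO line at 96 h had 7.14, 7.09 and 6.83 without dox and 6.82, 6.81 and 6.83 with dox. The dox libraries of the PELO line lay below all libraries of the other lines at that time, and level with library 3 of their own line without dox.

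**Figure D1:**
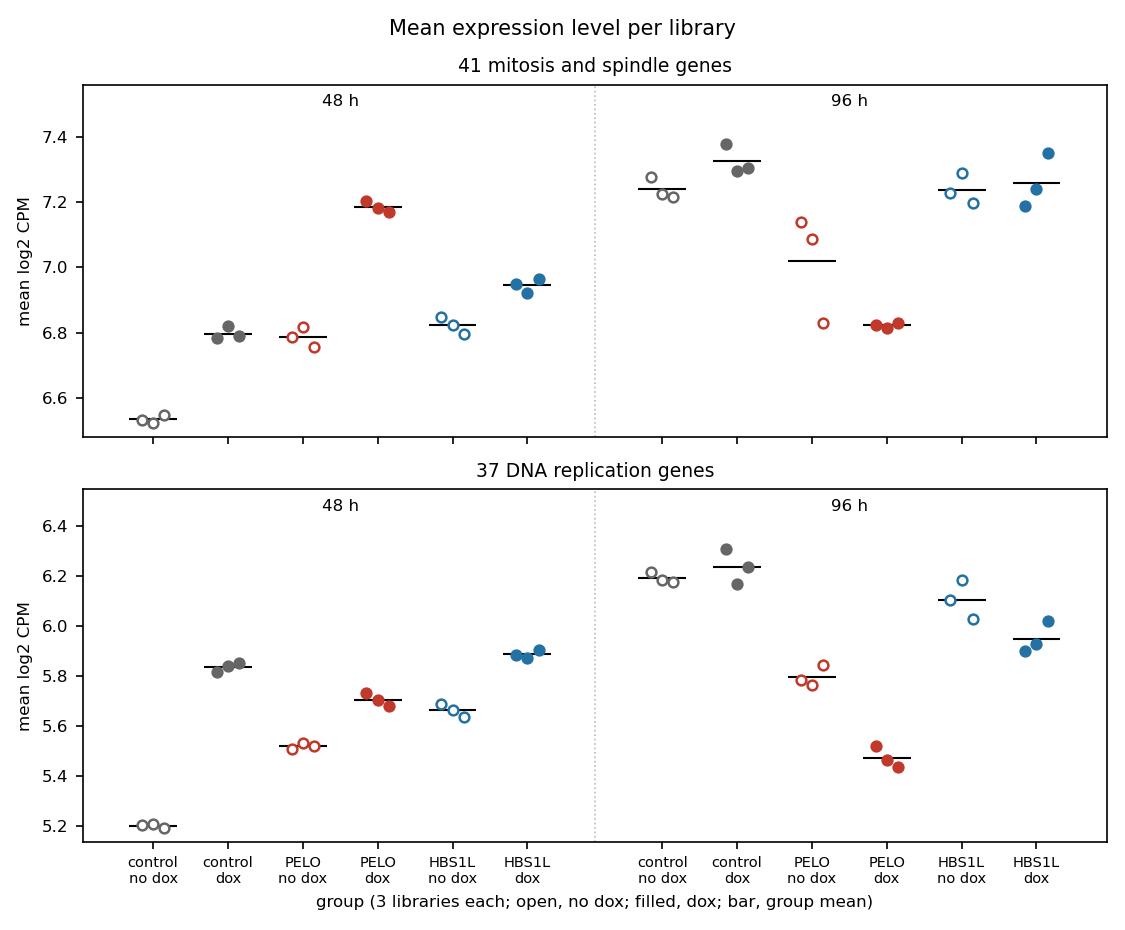
Mean log2 CPM per library (y axis) of the 41 mitosis and spindle genes (top) and of 37 DNA replication genes (bottom) in the 12 groups (x axis; grey, control line; red, PELO line; blue, HBS1L line; open points, no dox; filled points, dox; bars, group means of 3 libraries). At 48 h the PELO dox libraries have the highest mitotic mean (7.19 ± 0.02, SD), while at 96 h they have the lowest (6.82 ± 0.01); the y axes do not start at 0.

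Most of the genes rose with dox in the control line at 48 h. There 27 of 41 rose and 2 fell, where 19% and 16% of all genes tested rose and fell, and the median log2 change of the 41 was 0.29 against 0.02 for all genes. Calls are at an adjusted p below 0.05 in edgeR's quasi-likelihood test with Benjamini-Hochberg adjustment over the 20767 genes, and changes are log2 ± SE. SPC24 stood at 16.02, 13.001 and 13.5 CPM without dox and 25.2, 25.3 and 26.03 CPM with dox (log2 change 0.85 ± 0.07, adjusted p = 2.66e-12). ANLN, which organises the cleavage furrow, had 138, 148 and 153 CPM without and 231, 226 and 212 CPM with dox (0.61 ± 0.08, adjusted p = 1.01e-07). PTTG1 had 75.7, 71.96 and 68.9 CPM without and 101, 108 and 111 CPM with dox (0.56 ± 0.05, adjusted p = 2.47e-11). In these 3 genes every dox library was above every library without dox. Both falls were small. NDC80 went from 101 ± 3.51 to 89.4 ± 1.46 CPM (SD, n = 3) with a log2 change of -0.18 ± 0.05. CDC25B went from 303 ± 9.41 to 282 ± 4.52 CPM with -0.10 ± 0.04, a call that was lost without library 2 of the no-dox group and without library 1 or 3 of the dox group.

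The PELO line at 48 h had more rises. With dox 33 of the 41 genes rose and 1 fell (all genes 24.2% and 23.7%), with a median of 0.41 against -0.02 for all genes. TPX2, which activates Aurora A and nucleates spindle microtubules, had 347, 357 and 338 CPM without dox and 635, 613 and 615 CPM with dox (0.84 ± 0.05, adjusted p = 5.09e-17). ANLN had 193, 196 and 165 CPM without and 349, 320.4 and 311 CPM with dox (0.82 ± 0.08, adjusted p = 7.59e-11), and CDC20 211, 212 and 227 CPM without and 369.7, 373 and 373 CPM with dox (0.78 ± 0.05, adjusted p = 3.13e-15). The dox libraries were above the others in each of these. All 3 pole genes (AURKA, TPX2, PLK1), all 6 spindle assembly genes and all 5 midzone and cytokinesis genes rose. The fall was that of SPC24, from 21.4, 19.3 and 19.4 to 17.99, 16.99 and 16.2 CPM (-0.23 ± 0.07, adjusted p = 0.0072), whose libraries did not overlap; without library 1 of the no-dox group its log2 change was -0.18 and missed the threshold.

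In the HBS1L line at 48 h, 14 genes rose and 2 fell (all genes 10.1% and 11.4%), with a median of 0.13. SPC24 went from 24.3, 23.1 and 25.9 to 33.1, 32.1 and 31.3 CPM (0.40 ± 0.07, adjusted p = 1.91e-05). ANLN went from 177, 171 and 166 to 217, 209 and 223 CPM (0.34 ± 0.08, adjusted p = 0.00109), and KIF20A, the motor that carries the passenger complex to the midzone, from 111, 109.7 and 107 to 134, 133 and 144 CPM (0.33 ± 0.07, adjusted p = 4.69e-04). The dox libraries were the higher in all 3. NDC80 fell from 118 ± 2.75 to 97.6 ± 2.77 CPM (SD, n = 3; -0.28 ± 0.05), as in the control line. BUB3 had 199, 189.7 and 191 CPM without and 183, 177 and 176 CPM with dox and fell (-0.11 ± 0.04), a call lost when any 1 library of the line was left out. With the 6 libraries of this line alone in the fit, 24 genes rose and 4 fell, and the shares of all genes were 14.2% and 15.7%.

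Setting the dox response of the PELO line against that of the control line at 48 h left 17 genes that rose and 5 that fell beyond the control line, where 22.9% and 24.9% of all genes did. The median log2 change was 0.19 against -0.04 for all genes. As a share of the 41, rises were more frequent and falls less frequent than among all genes. CENPA and the spindle pole genes led the rises, and subunits of the outer kinetochore the falls. CENPA, the histone that marks the centromere, was at 38.1, 34.8 and 35.6 CPM without and 35.5, 37.1 and 39.3 CPM with dox in the control line. In the PELO line it went from 35.7, 36.8 and 39.8 to 61.6, 65.4 and 65.6 CPM, which gave 0.73 ± 0.09, adjusted p = 2.73e-08 beyond the control line. The control libraries overlapped, and the PELO libraries did not. TPX2, given above for the PELO line, had 299.8, 298 and 299 CPM without and 337, 345 and 338 CPM with dox in the control line (0.65 ± 0.07, adjusted p = 2.54e-10). AURKA had 127, 123 and 122 CPM without and 127, 132 and 134 CPM with dox in the control line. It had 137, 138 and 141 CPM without and 222, 231 and 229 CPM with dox for the PELO line (0.63 ± 0.08, adjusted p = 4.80e-08), where the dox libraries stood well above every other library of that time. HMMR, the hyaluronan receptor that binds spindle microtubules and TPX2, rose by 0.62, CDC25C by 0.54, PLK1 by 0.50 and UBE2C by 0.46. The other rises were KIF23 (0.43), PRC1 (0.42), NDC80 (0.41), CDC20 (0.35), KIF2C (0.32), BUB3 (0.27), AURKB (0.27), CDK1 (0.24), TTK (0.23) and CDC25B (0.19).

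The 5 falls beyond the control line were SPC24, SPC25, MAD2L1, PTTG1 and BIRC5. For SPC24 the difference combined the rise of the control line with the fall of the PELO line (-1.08 ± 0.10, adjusted p = 2.12e-11). SPC25, its partner in the NDC80 complex, had 23.6, 20.3 and 20.6 CPM without and 28.1, 30.8 and 30.9 CPM with dox in the control line. In the PELO line it had 27.3, 27.8 and 32.3 CPM without and 23.97, 28.6 and 27.99 CPM with dox (-0.60 ± 0.10, adjusted p = 4.49e-06). MAD2L1, the diffusible checkpoint signal, had 48.8, 44.6 and 46.9 CPM without and 67.8, 68.5 and 69.4 CPM with dox in the control line. It had 57.7, 61.96 and 63.4 CPM without and 59.2, 65.3 and 65.6 CPM with dox for the PELO line (-0.50 ± 0.08, adjusted p = 1.68e-06). In both genes the control line rose with dox and the own response of the PELO line did not pass the test (log2 changes of -0.12 and 0.05). PTTG1 and BIRC5 rose with dox in both lines, by less in the PELO line (log2 differences of -0.40 and -0.26). Without library 3 of the PELO no-dox group 8 genes fell (all genes 23.3%).

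The count depended on what the response was measured against. With dox libraries alone at 48 h, PELO line against control line, 35 of 41 genes were higher and 1 was lower (all genes 27.6% and 29.6%), SPC24 being the lower one (-0.58 ± 0.07). The 17 genes that rose beyond the control line were among the 35. SPC25, MAD2L1, PTTG1 and BIRC5 passed the threshold in neither direction in the dox libraries. Every library of the PELO line was above every library of the control line in 35 genes and below in 2, and in 4 they overlapped; over all genes tested, 29.3% were above and 32.2% below in the same way. The control line without dox, the lowest group for 31 genes, enters the response beyond the control line and does not enter this comparison.

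For HBS1L at 48 h the same change of reference turned the direction. Beyond the control line 0 genes rose and 9 fell (all genes 1.41% and 2.44%), with a median of -0.14 by edgeR; 1 gene rose at an unadjusted p below 0.05, DESeq2 called 1 up and limma 0. This comparison shares the control libraries with that of PELO. The falls were SPC25, SPC24, MAD2L1, PTTG1, BIRC5, UBE2C, AURKB, ECT2 and NUSAP1. SPC25 had 35.2, 33.1 and 35.2 CPM without and 36.04, 33.7 and 31.3 CPM with dox in the HBS1L line (-0.51 ± 0.10, adjusted p = 0.0013 beyond the control line). MAD2L1 had 68.9, 64.3 and 68.4 CPM without and 79.5, 74.7 and 75.7 CPM with dox (-0.36 ± 0.08, adjusted p = 0.00417), and SPC24, with the values above, -0.45 ± 0.10, adjusted p = 0.00374. SPC24 and MAD2L1 therefore rose with dox in the HBS1L line, by less than in the control line. With dox libraries alone, HBS1L line against control line, 22 genes were higher and 0 were lower (all genes 9.47% and 13.6%; 1 lower at an unadjusted p below 0.05). In that comparison SPC24 was higher by 0.33, MAD2L1 by 0.16, PTTG1 by 0.42 and CDC20 by 0.42. Of the 9 genes that fell beyond the control line, 7 were higher in the dox libraries; SPC25 and ECT2 passed the threshold in neither direction. Without library 2 of the control dox group 5 genes fell beyond the control line (all genes 1.64%). With only the 12 libraries of both lines in the fit 14 did, where 3.92% of all genes fell.

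The difference between both targeted lines at 48 h, in which the control line cancels, had 23 genes higher and 1 lower in the PELO response (all genes 21.9% and 21.3%; median 0.32). TPX2 in the HBS1L line had 369, 362 and 350.3 CPM without and 379, 368 and 394 CPM with dox (PELO minus HBS1L 0.76 ± 0.07, adjusted p = 9.18e-12). UBE2C, the ubiquitin-conjugating enzyme of the anaphase-promoting complex, went from 148, 149 and 159.9 to 229.7, 245 and 239.7 CPM in the PELO line. In the HBS1L line it went from 179.8, 187 and 187 to 169, 169 and 174 CPM (0.76 ± 0.07, adjusted p = 2.41e-11), where the dox libraries were the lower and the own change did not pass the test (-0.12). AURKA had 149, 150.2 and 147 CPM without and 155, 154 and 156 CPM with dox in the HBS1L line (0.65 ± 0.08, adjusted p = 3.40e-08). The dox libraries of the PELO line were above those of the HBS1L line in all 3 genes. SPC24 was the gene with the lower PELO response (-0.62 ± 0.10, adjusted p = 1.59e-06). Without library 1 of the PELO dox group 2 genes were lower (all genes 20.2%).

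**Figure D2:**
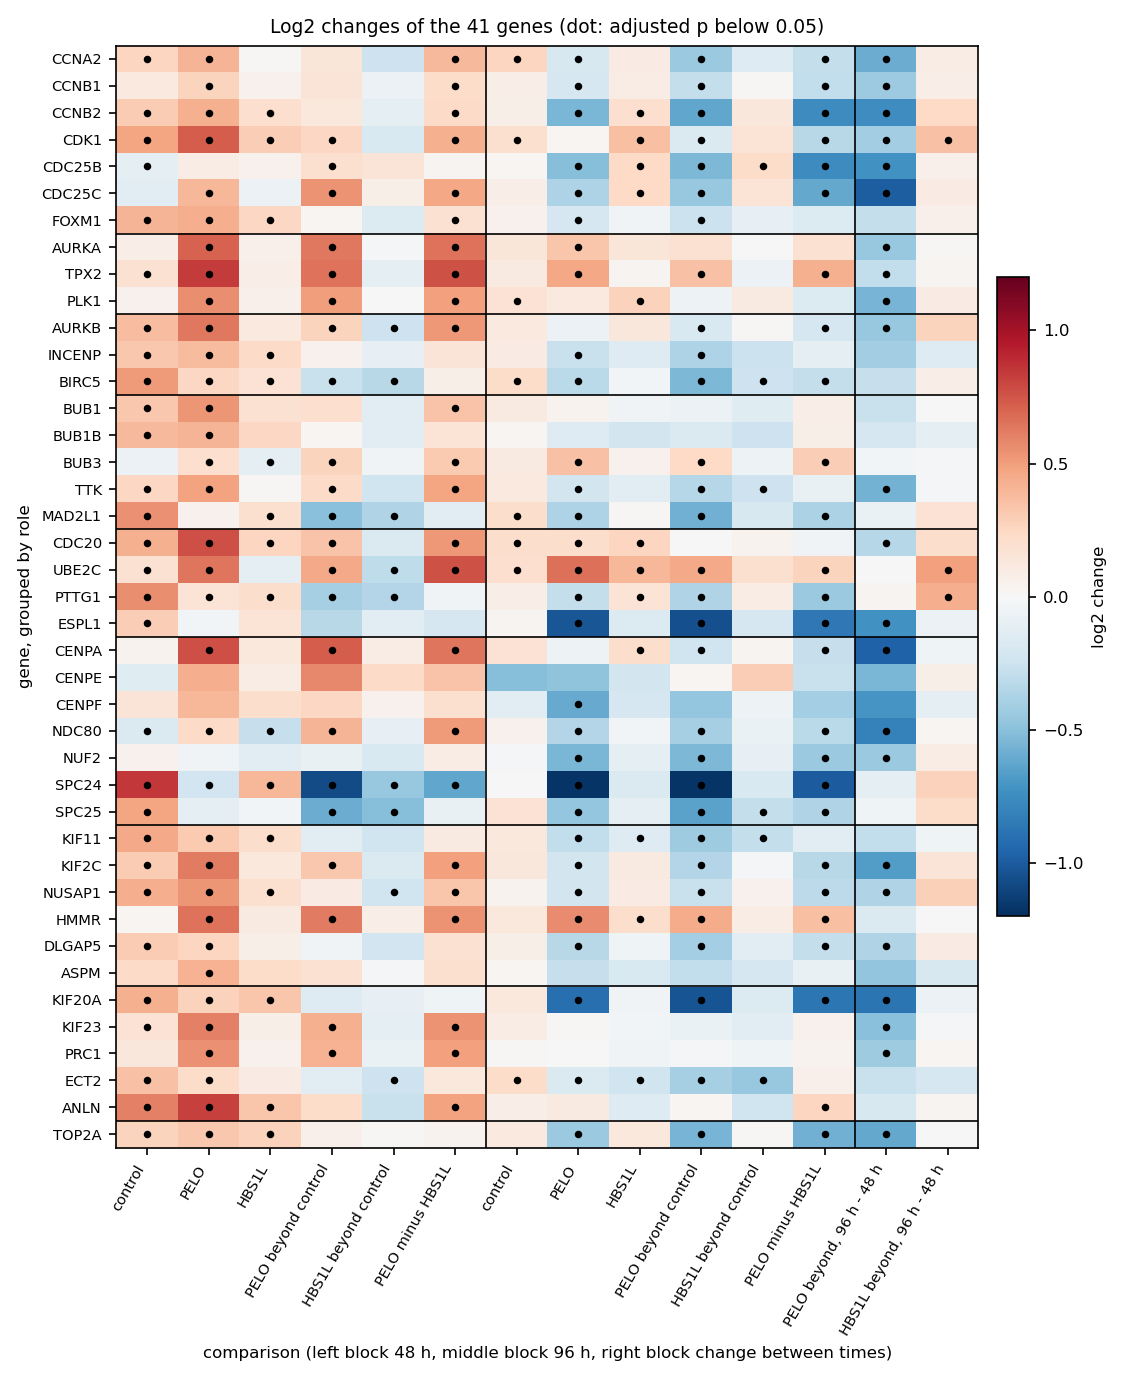
Log2 change of each of the 41 genes (rows, grouped by role) in 14 comparisons (columns; left block 48 h, middle block 96 h, right block the change between times), from blue (-1.2) to red (1.2), with a dot where the adjusted p was below 0.05. The PELO columns are mostly red at 48 h and mostly blue at 96 h, with TPX2, HMMR, UBE2C and BUB3 red in both.

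By 96 h the response of the control line to dox was small. 8 of the 41 genes rose and 0 fell (all genes 3.89% and 3.63%), with a median of 0.11; 1 gene fell at an unadjusted p below 0.05, and DESeq2 and limma also called 0. CCNA2 went from 126, 121 and 128 to 147, 141 and 158 CPM (0.25 ± 0.05, adjusted p = 0.00192). ECT2, the exchange factor that activates RhoA in the furrow, went from 347, 329.8 and 331 to 403, 386 and 386 CPM (0.22 ± 0.05, adjusted p = 0.00725), and BIRC5 from 222, 223 and 245 to 269.6, 240.2 and 292 CPM (0.22 ± 0.06, adjusted p = 0.0184). Every dox library was the higher for CCNA2 and ECT2, while the BIRC5 libraries overlapped. Single libraries moved the count: it was 3 and 2 without library 1 or 2 of the no-dox group (all genes 1.77% and 1.18%). It was 4 and 3 without library 1 or 3 of the dox group (all genes 2.72% and 1.35%). With the 6 libraries alone in the fit it was 4, where 1.56% of all genes rose.

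The PELO line at 96 h went the other way from 48 h. With dox 6 genes rose and 24 fell (all genes 34.4% and 32.5%), with a median of -0.22 against 0.00 for all genes. UBE2C rose from 169, 159.7 and 152 to 267, 246 and 246 CPM (0.66 ± 0.05, adjusted p = 1.49e-14). HMMR rose from 206, 197 and 156 to 274, 271 and 284.8 CPM (0.57 ± 0.06, adjusted p = 1.37e-10), and TPX2 from 437, 419 and 363 to 557, 553 and 568 CPM (0.46 ± 0.05, adjusted p = 6.89e-11). All dox libraries of these genes lay above all others of the line; BUB3, AURKA and CDC20 rose too, by 0.35, 0.33 and 0.21. SPC24 fell from 22.8, 24.1 and 21.4 to 9.37, 10.3 and 10.5 CPM (-1.17 ± 0.07, adjusted p = 4.76e-17). ESPL1, the separase that cuts cohesin at anaphase, fell from 46.4, 44.3 and 34.96 to 19.2, 21.9 and 20.6 CPM (-1.02 ± 0.10, adjusted p = 4.54e-10), and KIF20A from 195, 182 and 141 to 94.4, 91.8 and 90.2 CPM (-0.91 ± 0.07, adjusted p = 1.02e-13). These 3 did not overlap either, and SPC24 with dox was below its level in every other group.

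Library 3 of the no-dox group bears on these values. Its ratio to the mean of libraries 1 and 2 was lowest for CENPE, at 0.359. CENPF and ASPM were at 217 and 137 CPM there against 423 and 224 CPM in library 1. MAD2L1 and BIRC5 were the genes that were not below both libraries. Its mitochondrial share was 2.14% of counts against 1.91% and 1.95% in libraries 1 and 2, and its total of 56692552 counts compares with 54766833 and 53578754; the part of either in the result was not tested. The DNA replication genes were not lower in it, with a mean log2 CPM of 5.84 in library 3 against 5.78 and 5.76. All dox libraries lay below libraries 1 and 2 in 31 of the 41 genes, where 38.5% of all genes did. They lay below all 3 in 20 and above all 3 in 6, where 32.6% and 34.8% of all genes did. Without library 3 the log2 changes were 0.61 for UBE2C, 0.44 for HMMR, 0.37 for TPX2, -1.23 for SPC24, -1.15 for ESPL1 and -1.05 for KIF20A. In that setting 30 genes fell and 6 rose (all genes 32.7% and 32%).

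**Figure D3:**
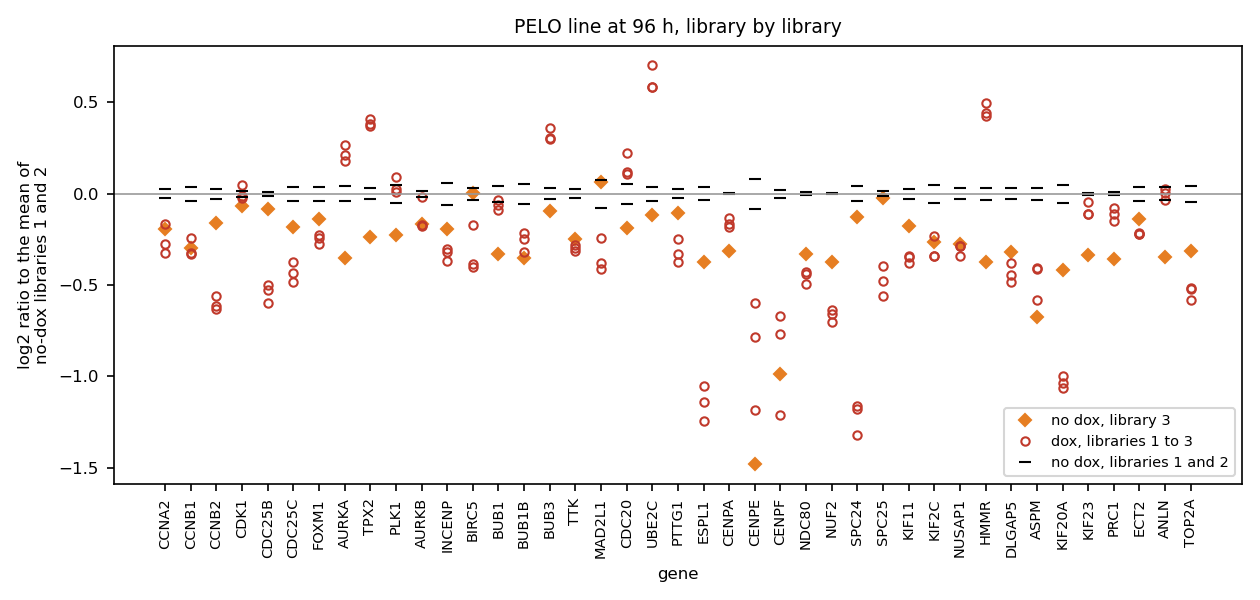
PELO line at 96 h: log2 ratio of each library to the mean of no-dox libraries 1 and 2 (y axis) for the 41 genes (x axis, by role); black dashes, no-dox libraries 1 and 2; orange diamonds, no-dox library 3; open red circles, the 3 dox libraries. Library 3 lies below 0 for nearly all genes, while the dox libraries lie above 0 for UBE2C, HMMR, TPX2, BUB3, AURKA and CDC20 and far below it for SPC24, ESPL1 and KIF20A.

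Beyond the control line at 96 h, 4 genes rose and 26 fell in the PELO line (all genes 28.7% and 26%), with a median of -0.34 against 0.02 for all genes. As a share of the 41, falls were more frequent and rises less frequent than among all genes. Without library 3 of the no-dox group the counts were 4 and 30 (all genes 26.6% and 26.2%). UBE2C was then at 0.40, HMMR at 0.31, TPX2 at 0.26, SPC24 at -1.24, ESPL1 at -1.19 and KIF20A at -1.18. All 7 entry regulators fell, from CDK1 (-0.17) to CCNB2 (-0.62), and so did all 3 passenger genes, AURKB (-0.19), INCENP (-0.37) and BIRC5 (-0.54). In the own response of the PELO line, CDK1, AURKB and CENPA did not pass the test. All 4 NDC80 complex subunits fell: SPC24 (-1.18 ± 0.10, adjusted p = 5.32e-13), SPC25 (-0.65), NUF2 (-0.54) and NDC80 (-0.40). CENPA fell (-0.24), and CENPE and CENPF, whose libraries vary most, did not pass the test (0.03 ± 0.32 and -0.47 ± 0.25).

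Among the other groups the direction was mixed at 96 h. ESPL1 had 57.4, 51.6 and 50.02 CPM without and 56.2, 55.5 and 51.4 CPM with dox in the control line, where the libraries overlapped, and fell in the PELO line beyond it (-1.06 ± 0.14, adjusted p = 1.95e-07). KIF20A had 212, 196 and 207 CPM without and 229, 213 and 229 CPM with dox in the control line, where the dox libraries were the higher (-1.03 ± 0.10, adjusted p = 3.80e-11 beyond it). UBE2C, with 164, 168 and 169.5 CPM without and 199.5, 183 and 195 CPM with dox in the control line, rose in the PELO line beyond it (0.46 ± 0.07, adjusted p = 5.90e-07). The exit genes thus split, with UBE2C up, PTTG1 (-0.36) and ESPL1 down, and CDC20 at 0.0025 ± 0.07. HMMR in the control line had 197, 194 and 194 CPM without and 220.1, 211 and 206 CPM with dox (0.45 ± 0.08, adjusted p = 2.55e-05 beyond it), and TPX2 478, 468 and 473 CPM without and 533, 497 and 496 CPM with dox (0.36 ± 0.07, adjusted p = 2.09e-05). Of the spindle assembly genes HMMR was the riser, while KIF11, KIF2C, NUSAP1 and DLGAP5 fell (-0.43, -0.35, -0.26 and -0.41), and ASPM was at -0.29 ± 0.19. TPX2 rose, AURKA (0.18 ± 0.08) and PLK1 (-0.06 ± 0.08) did not pass the test, and neither did KIF23 (-0.08), PRC1 (-0.01) or ANLN (0.02). ECT2 fell (-0.39), as did TOP2A (-0.56). In the checkpoint, BUB3 rose (0.24), MAD2L1 (-0.57) and TTK (-0.34) fell, and the kinases BUB1 (-0.07 ± 0.10) and BUB1B (-0.18 ± 0.13) did not pass.

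With dox libraries alone at 96 h, PELO line against control line, 4 genes were higher and 35 lower (all genes 33.1% and 31.1%). This comparison shares the dox libraries with the one before. The 4 higher genes were again TPX2, BUB3, UBE2C and HMMR, at 0.14, 0.19, 0.39 and 0.38. The 26 genes that fell beyond the control line were all among the 35, and AURKA and CDC20 passed the threshold in neither comparison. SPC24 (-1.60), ESPL1 (-1.40) and KIF20A (-1.28) were again the lowest. Every library of the PELO line was above every library of the control line in 4 genes and below in 34, and in 3 they overlapped; over all genes tested, 34.3% were above and 32.1% below in the same way.

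**Figure D4:**
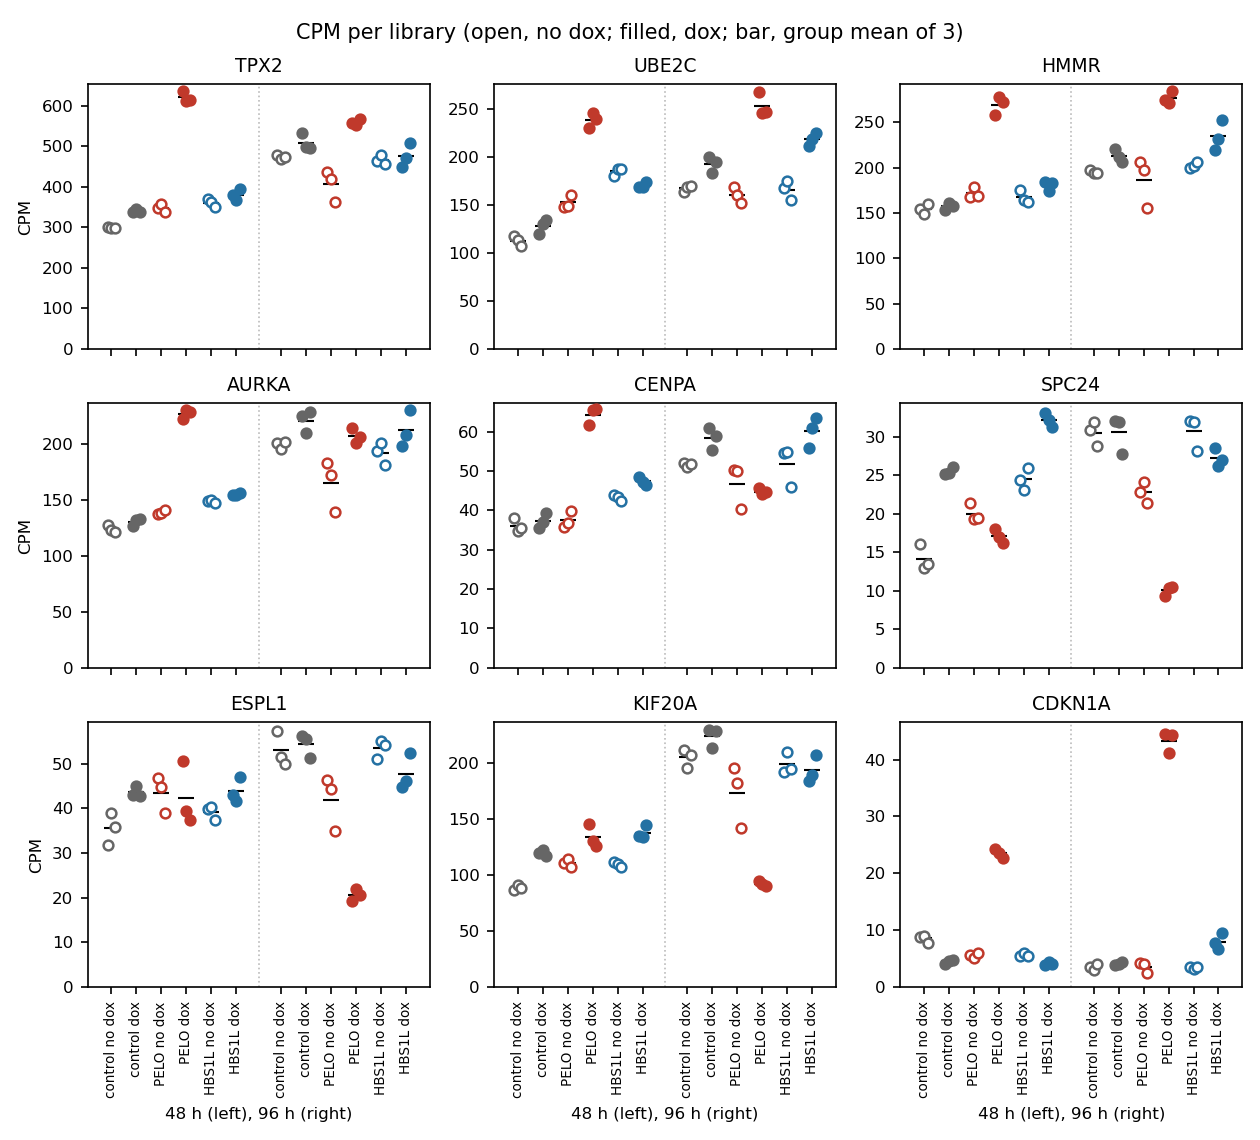
CPM per library (y axis, from 0) of 8 mitosis and spindle genes and of CDKN1A in the 12 groups (x axis; 48 h left, 96 h right; grey, control line; red, PELO line; blue, HBS1L line; open points, no dox; filled points, dox; bars, means of 3 libraries). TPX2, UBE2C and HMMR are highest in the PELO dox libraries at both times, SPC24, ESPL1 and KIF20A fall there at 96 h, and CDKN1A reaches 43.3 ± 1.84 CPM (SD) in that group.

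In the HBS1L line at 96 h a few genes of entry and exit rose. 10 genes rose and 2 fell (all genes 11% and 8.9%), with a median of -0.03. UBE2C went from 167, 174 and 155 to 211, 218 and 225 CPM (0.40 ± 0.05, adjusted p = 1.74e-07). CDK1 went from 106, 107 and 100.5 to 126, 133 and 143 CPM (0.36 ± 0.05, adjusted p = 1.14e-06), and PLK1 from 170.0, 179.9 and 161 to 195, 206 and 219 CPM (0.28 ± 0.05, adjusted p = 2.06e-04). In all 3 the dox libraries were higher. ECT2 went from 334, 365 and 351 to 281, 286 and 325 CPM (-0.24 ± 0.05, adjusted p = 0.00116), with no overlap. KIF11, the motor that pushes the poles apart, had 199, 222 and 209 CPM without and 179, 179 and 206 CPM with dox (-0.16 ± 0.06, adjusted p = 0.0494); its libraries overlapped, and the call was lost without library 2 or 3 of the no-dox group and without library 1 or 2 of the dox group. With library 3 of the dox group left out 5 genes fell (all genes 7.88%). With library 2 of the no-dox group, or library 1 or 2 of the dox group, left out 1 fell (all genes 6.31%, 5.77% and 5.34%).

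Beyond the control line at 96 h, 1 gene rose and 5 fell in the HBS1L line (all genes 5.41% and 5.32%; median -0.07). CDC25B, a phosphatase that activates CDK1, had 336, 345 and 339 CPM without and 401, 398 and 405 CPM with dox in the HBS1L line (0.22 ± 0.05, adjusted p = 0.00516). The control line had 335, 342 and 341 CPM without and 343, 344 and 348 CPM with dox. ECT2, which rose in the control line and fell in the HBS1L line, fell beyond the control line as well (-0.46 ± 0.07, adjusted p = 5.46e-05). SPC25 had 46.5, 47.8 and 42.7 CPM without and 39.2, 43.03 and 44.5 CPM with dox in the HBS1L line and 44.6, 46.9 and 48.7 CPM without and 53.9, 50.3 and 54.4 CPM with dox in the control line (-0.29 ± 0.09, adjusted p = 0.0406). KIF11 (-0.29), BIRC5 (-0.25) and TTK (-0.25) also fell. Leaving out library 2 of either no-dox group or library 1 of either dox group left 1 fall. So did leaving out library 2 of the HBS1L dox group (all genes 2.98% to 3.79% over these settings). Leaving out library 3 of the control dox group left 2 (all genes 4.37%). Without library 1 of either no-dox group it was 3 (all genes 4.27% for the control and 5.5% for the HBS1L group). Without library 2 of the HBS1L no-dox group 2 genes rose (all genes 3.58%). With dox libraries alone, 4 genes were higher and 12 lower in the HBS1L line (all genes 14.9% and 14.8%).

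At 96 h the responses of both targeted lines differed in 5 genes with a higher and 21 genes with a lower PELO response (all genes 29.1% and 26.4%; median -0.28). TPX2 in the HBS1L line had 463, 479 and 455 CPM without and 448, 472 and 509 CPM with dox (PELO minus HBS1L 0.43 ± 0.07, adjusted p = 9.06e-07). HMMR had 199.6, 202 and 206 CPM without and 219, 231 and 253 CPM with dox there (0.36 ± 0.08, adjusted p = 4.30e-04). BUB3, which recruits the checkpoint kinases, had 205, 216 and 203 CPM without and 206, 215 and 226 CPM with dox there, against 213, 205 and 196 CPM without and 257, 258 and 268 CPM with dox for the PELO line (0.30 ± 0.06, adjusted p = 1.98e-05). With dox, the PELO libraries of these 3 genes lay above those of the HBS1L line. SPC24 had 32.1, 31.9 and 28.2 CPM without and 28.6, 26.2 and 26.9 CPM with dox in the HBS1L line (-1.001 ± 0.10, adjusted p = 3.60e-11), KIF20A 192, 209.8 and 195 CPM without and 184, 189 and 207 CPM with dox (-0.87 ± 0.10, adjusted p = 1.91e-09). ESPL1 had 51.1, 55.2 and 54.3 CPM without and 44.8, 46.2 and 52.3 CPM with dox (-0.86 ± 0.14, adjusted p = 5.88e-06). In none of these 3 did the HBS1L libraries with dox reach down to those of the PELO line. Without library 3 of the PELO no-dox group the counts were 4 and 27 (all genes 26.9% and 26.7%). TPX2 was then at 0.33, HMMR at 0.22, BUB3 at 0.25, SPC24 at -1.06, KIF20A at -1.02 and ESPL1 at -0.99.

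The PELO response beyond the control line was itself lower at 96 h than at 48 h in 23 of the 41 genes and higher in 0 (all genes 9.98% and 10.5%; median -0.43 against 0.04 for all genes). At an unadjusted p below 0.05, 0 were higher, and DESeq2 and limma called 0. The fitted change was below 0 in 40 genes, while the median over all genes was 0.04, above 0. Without library 3 of the PELO no-dox group at 96 h, 32 were lower (all genes 10.7%). CDC25C, the phosphatase that switches on CDK1 at mitotic entry, went in the PELO line from 34.7, 38.8 and 39.96 to 48.4, 50.6 and 50.7 CPM at 48 h and from 47.97, 45.5 and 41.2 to 36.1, 33.4 and 34.6 CPM at 96 h. In the control line it went from 35.2, 35.4 and 34.9 to 32.4, 31.2 and 32.3 CPM at 48 h and from 46.9, 43.3 and 42.9 to 44.7, 44.9 and 51.001 CPM at 96 h (difference between the times -0.99 ± 0.11, adjusted p = 2.58e-08). The dox libraries of the PELO line were thus above its no-dox libraries and all control libraries at 48 h, and below them at 96 h. CENPA at 96 h had 51.99, 51.002 and 51.9 CPM without and 60.9, 55.3 and 58.8 CPM with dox in the control line and 50.2, 49.9 and 40.2 CPM without and 45.7, 44.1 and 44.6 CPM with dox for the PELO line (-0.97 ± 0.13, adjusted p = 7.07e-07). KIF20A at 48 h had 86.2, 90.97 and 88.6 CPM without and 119, 122 and 117 CPM with dox in the control line and 111, 114 and 106 CPM without and 145, 131 and 126 CPM with dox for the PELO line (-0.88 ± 0.14, adjusted p = 1.40e-05). For KIF20A at 48 h the dox libraries of the PELO line were above its no-dox libraries and all control libraries. They overlapped the dox libraries of the HBS1L line. Without that library the differences were -1.06 for CDC25C, -1.08 for CENPA and -1.02 for KIF20A.

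Read by call at each time, the genes fell into 6 sets by the PELO response beyond the control line. Of all genes, 22.9% rose and 24.9% fell at 48 h, and 28.7% and 26% at 96 h. The share of all genes with each pair of calls was not computed. TPX2, BUB3, UBE2C and HMMR rose at both times. BIRC5, MAD2L1, PTTG1, SPC24 and SPC25 fell at both. In the own response of the PELO line at 48 h, BIRC5 and PTTG1 rose, MAD2L1 and SPC25 did not pass, and SPC24 fell. CDK1, CDC25B, CDC25C, AURKB, TTK, CENPA, NDC80 and KIF2C, 8 genes, rose at 48 h and fell at 96 h, and for each of the 8 the difference between the times passed the test. In the own response of the PELO line, CDK1, AURKB and CENPA did not pass at 96 h, and CDC25B did not pass at 48 h. AURKA, PLK1, CDC20, KIF23 and PRC1 rose at 48 h and did not pass at 96 h, and for these 5 the difference passed as well. Another 13 genes fell at 96 h without passing at 48 h: CCNA2, CCNB1, CCNB2, FOXM1, INCENP, ESPL1, NUF2, KIF11, NUSAP1, DLGAP5, KIF20A, ECT2 and TOP2A. BUB1, BUB1B, CENPE, CENPF, ASPM and ANLN, 6 genes, passed at neither time. Among the 4 genes that rose at both times, TPX2 was lower at 96 h (-0.30), and the differences of UBE2C (-5.6e-05 ± 0.10), HMMR (-0.18 ± 0.12) and BUB3 (-0.03 ± 0.08) did not pass. The comparisons at both times share no libraries.

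**Figure D5:**
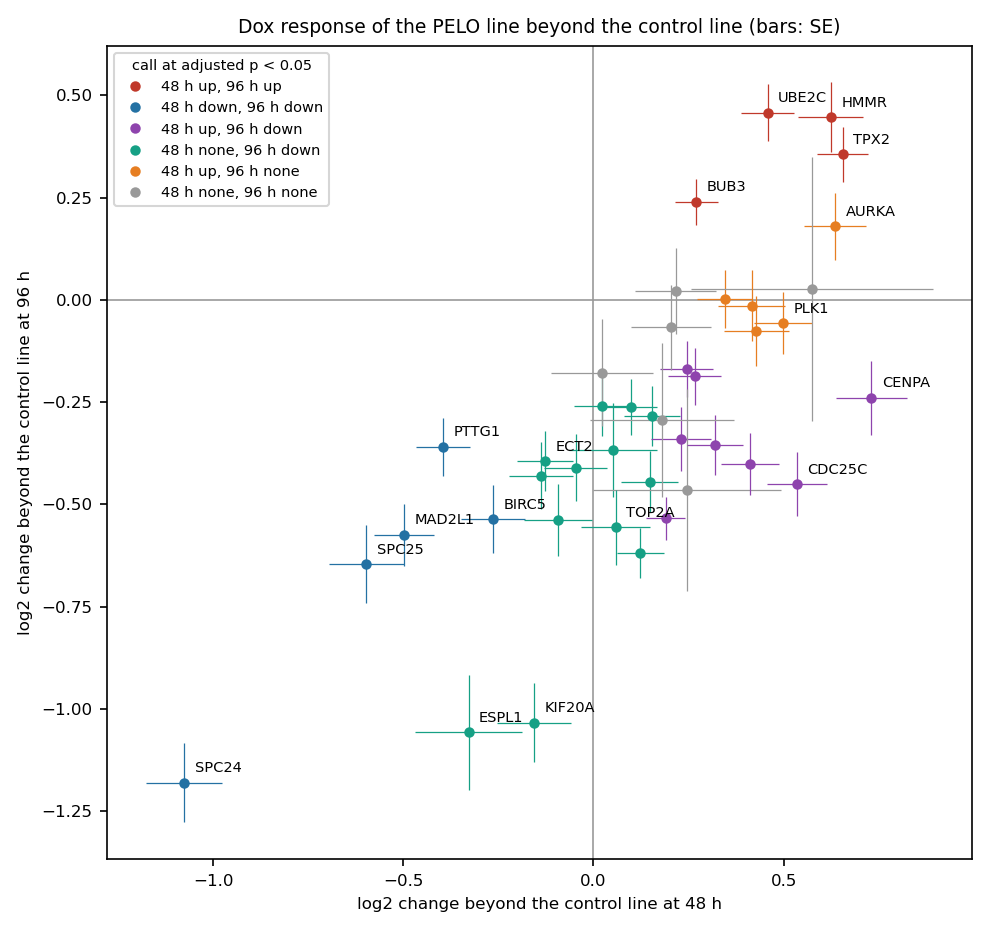
Log2 PELO response to dox beyond the control line at 48 h (x axis) and 96 h (y axis) for the 41 genes; points are coloured by the calls at both times and bars are SE. UBE2C, HMMR, TPX2 and BUB3 lie in the upper right, SPC24 in the lower left at -1.08 and -1.18, and the 8 genes that rose at 48 h and fell at 96 h in the lower right.

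For HBS1L, the response beyond the control line was higher at 96 h than at 48 h in 3 genes and lower in 0 (all genes 1.83% and 1.23%; 0 lower at an unadjusted p below 0.05 and by DESeq2 and limma). These were UBE2C (0.50 ± 0.10, adjusted p = 0.00474), PTTG1 (0.44 ± 0.10, adjusted p = 0.0123) and CDK1 (0.35 ± 0.10, adjusted p = 0.0445). At 48 h UBE2C had 118, 113 and 107 CPM without and 119.7, 130.1 and 135 CPM with dox in the control line, where it rose; its change in the HBS1L line did not pass the test. PTTG1 in the HBS1L line had 122, 123 and 124 CPM without and 142, 143 and 141 CPM with dox at 48 h, and 144, 145 and 137 CPM without and 157, 161 and 159.9 CPM with dox at 96 h. At 96 h its control libraries held 149, 147 and 153 CPM without and 159.8, 147 and 166 CPM with dox. CDK1 in the HBS1L line at 48 h had 75.8, 76.9 and 75.9 CPM without and 94.8, 95.9 and 89.4 CPM with dox, and in the control line 60.04, 54.4 and 59.7 CPM without and 78.3, 81.1 and 83.03 CPM with dox. Its control libraries at 96 h had 105, 107 and 109 CPM without and 127, 116 and 125 CPM with dox. The CDK1 call was lost in 17 of the 24 settings that left out 1 library.

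Genes that act with the 41 were described from lists of the same pathway, by counts of calls in the PELO response beyond the control line. CDKN1A, which encodes the CDK inhibitor p21, had, in the PELO line, 5.54, 5.02 and 5.94 CPM without and 24.3, 23.5 and 22.6 CPM with dox at 48 h (3.03 ± 0.16, adjusted p = 1.04e-16 beyond the control line). At 96 h it had 4.11, 3.998 and 2.41 CPM without and 44.4, 41.2 and 44.3 CPM with dox (3.40 ± 0.18, adjusted p = 3.51e-17). In the HBS1L line it went from 3.44, 3.12 and 3.41 to 7.73, 6.61 and 9.42 CPM at 96 h (1.02 ± 0.19, adjusted p = 3.29e-04). At 48 h it passed in neither direction beyond the control line there (0.47 ± 0.17). SFN, whose protein holds cyclin B and CDK1 in the cytoplasm, rose by 1.47 at 48 h. E2F4, the DREAM factor that binds DNA, rose by 0.65 at 96 h. RBL2, its pocket protein p130, fell (-0.75 and -1.01), and so did the MuvB subunit RBBP4 (-0.69 and -0.69).

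Mitotic regulators outside the 41 are given by their calls at each time, and the difference between the times was not tested for these lists. Beyond the control line, the shares of all genes were 22.9% up and 24.9% down at 48 h, and 28.7% and 26% at 96 h. Of 13 G2/M regulators, 11 rose beyond the control line at 48 h, led by BORA (0.90 ± 0.11), the activator of Aurora A toward PLK1, and NEK2 (0.51 ± 0.08). At 96 h 2 rose, CDC25A (0.97 ± 0.09) and MASTL (0.30 ± 0.07), and 5 fell, led by CDCA3 (-0.46) and CCNF (-0.38). Of 30 other kinetochore genes, 9 rose and 12 fell at 48 h, and 10 and 16 at 96 h. HJURP, the chaperone that loads CENPA, rose by 1.06 at 48 h, and CENPL rose at both times (1.11 and 0.93). MIS12, which joins the NDC80 complex to the centromere, rose by 1.04 at 96 h, while its complex partners NSL1 (-0.62 and -0.76) and, at 48 h, DSN1 (-0.60) fell; CENPH fell at 96 h (-1.04). Of 17 other spindle and cytokinesis genes, 9 rose and 1, NUMA1 (-0.43), fell at 48 h, against 3 and 7 at 96 h. CEP55 and RACGAP1, which act in abscission and in the midzone with KIF23, rose at 48 h (0.73 and 0.58) and at 96 h (0.31 and 0.38). CIT (-1.19 ± 0.18) and KIF15 (-0.92 ± 0.14) fell at 96 h.

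In the anaphase-promoting complex, 6 of 16 genes rose and 7 fell at 48 h, and 4 and 7 at 96 h. For this list and those of condensin, cohesin and the centrosome, the shares of all genes were 22.9% up and 24.9% down at 48 h. At 96 h these shares were 28.7% and 26%. Its subunit CDC16 rose at both times (0.40 and 0.68), and so, at 48 h, did its coactivator FZR1 (0.41) and, at 96 h, CDC26 (0.83). ANAPC15, which helps release the checkpoint complex, fell at both times (-0.75 and -1.07); CDC23 fell at 48 h (-0.40) and ANAPC5 at 96 h (-0.33). Condensin, which folds mitotic chromosomes, had 2 of 8 genes up, NCAPG (0.40) and SMC4 (0.21), and 4 down at 48 h, among them SMC2 (-0.43) and NCAPD3 (-0.49). At 96 h 6 of the 8 fell, led by NCAPD2 (-0.85 ± 0.08) and NCAPD3 (-0.74 ± 0.09). In cohesin, 7 of 13 rose and 3 fell at 48 h, and 3 and 5 at 96 h. Its subunit STAG1 (0.47 and 0.73) and its release factor WAPL (0.55 and 0.54) rose at both times. The acetyltransferase ESCO2 fell at both (-0.42 and -0.51), PDS5B at 48 h (-0.28), and RAD21, the subunit that separase cuts, at 96 h (-0.49). Among 8 centrosome genes, STIL (0.43) and NEDD1 (0.25) rose and SASS6 (-0.21) fell at 48 h, and 3 fell at 96 h, led by TUBG1 (-0.32) and CEP192 (-0.52).

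DNA replication genes, expressed earlier in the cycle, were set beside the mitotic genes. Beyond the control line in the PELO line 1 of 37 rose and 30 fell at 48 h (median -0.47, against 0.19 for the 41), and 5 and 24 at 96 h (median -0.41, against -0.34). The shares of all genes were 22.9% and 24.9% at 48 h, and 28.7% and 26% at 96 h. The 48 h riser was GINS3 (0.34), and PCNA (-1.06 ± 0.08) and LIG1 (-0.93 ± 0.07) led the falls. At 96 h GINS3 and CDC6 rose (0.82 and 0.72), and POLD1 (-1.53 ± 0.07) and LIG1 (-1.49 ± 0.07) led the falls. In the control line at 48 h the mean log2 CPM of these genes moved from 5.20 ± 0.01 to 5.83 ± 0.02 (SD, n = 3), and in the PELO line from 5.52 ± 0.01 to 5.70 ± 0.03. For the 41 genes the same means were 6.53 ± 0.01 and 6.80 ± 0.02, and 6.79 ± 0.03 and 7.19 ± 0.02. With dox at 48 h, the PELO line was thus above the control line for the mitotic and below it for the replication genes. The difference between the lists was not tested.

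The genes were also split by TTTGAA in the promoter, with no test. Beyond the control line, 22.9% of all genes rose and 24.9% fell at 48 h, and 28.7% and 26% at 96 h. Of the 23 genes with the element, 8 rose and 2 fell in the PELO response beyond the control line at 48 h (median 0.12). Of the 11 without it, 4 rose and 2 fell (median 0.19). At 96 h 14 of the 23 and 9 of the 11 fell, with medians of -0.37 and -0.36. HMMR, with the tandem element printed above, rose at 96 h, while ESPL1, with a single copy at nearly the same distance, fell. The 7 genes in neither set are AURKA, TPX2, FOXM1, BIRC5, BUB3, TTK and UBE2C. Of these 5 rose and 1 fell at 48 h (median 0.27), and 3 rose and 3 fell at 96 h (median 0.18).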

How the data were processed

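Per the submitters' processing notes, reads were handled with DRAGEN, featureCounts and Subread on GRCh38.p13, and edgeR and limma were used; their versions and the annotation were not given in the sources used here. Expected counts, which the authors deposited for 61544 genes in 36 libraries, were rounded to whole numbers, since 45.6% of values above 0 were not whole. Their log2 table of 17138 genes, also deposited, served as an alternative. The members and lists were chosen with earlier results of these data known.

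Genes were kept by filterByExpr (minimum count 10, minimum total 15) and fitted with edgeR 4.0.16 in R 4.3.3 (TMM scaling, robust quasi-likelihood), 12 group means in one fit, with responses and their differences as contrasts and Benjamini-Hochberg adjustment over 20767 genes. Medians of lists are not tested. Alternatives were RLE size factors, DESeq2 1.42.0, no filter, limma 3.58.1 on the log2 table, a replicate block, the compared groups alone, dox libraries alone and each library left out. Given library by library in each comparison were the 3 called genes with the largest rise and the 3 with the largest fall, with all 41 named at least once. From each other list up to 2 called genes per direction with the smallest adjusted p were named; the counts of the list of p21, DREAM and MuvB regulators are not reported here. Comparisons at one time share the control libraries. Depth was 45356024 to 107436235 counts per library.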

Additional observations from a re-analysis of the deposited data

Results flagged for a closer look

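Differences between the responses of both targeted lines, and between both times, were tested as contrasts in edgeR's quasi-likelihood fit, and those past the threshold are gathered here. At 48 h the PELO response exceeded the HBS1L response in 23 genes and was below it in 1 (all genes 21.9% and 21.3%). TPX2 (0.76), UBE2C (0.76) and AURKA (0.65) led, on the log2 scale, and SPC24 was the lower one (-0.62). At 96 h it was above in 5 and below in 21 genes (all genes 29.1% and 26.4%), with TPX2 (0.43), HMMR (0.36) and BUB3 (0.30) above and SPC24 (-1.001), KIF20A (-0.87) and ESPL1 (-0.86) below.

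Between 48 h and 96 h the PELO response beyond the control line dropped in 23 genes (all genes 9.98%), led by CDC25C (-0.99), CENPA (-0.97) and KIF20A (-0.88). The HBS1L response was higher at 96 h in 3 genes (all genes 1.83%), UBE2C (0.50), PTTG1 (0.44) and CDK1 (0.35). Time and batch cannot be told apart in these differences.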

How the results depend on the processing

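Of 660 values of named genes with 1 library left out, 611 kept their direction and side of the threshold, 49 lost the call and 0 reversed. Of 397 under the other alternatives, 381 kept both, 13 lost the call and 3 reversed. The 3 came from comparing dox libraries alone, HBS1L line against control line at 48 h: SPC25 was 0.17, SPC24 0.33 and MAD2L1 0.16. That comparison had 22 genes higher and 0 lower at 48 h (all genes 9.47% and 13.6%) and 4 and 12 at 96 h (14.9% and 14.8%). For PELO at 48 h it had 35 and 1 (all genes 27.6% and 29.6%).

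With only the compared groups in the fit, 4 genes fell in the control line at 48 h (all genes 20.2%). In the HBS1L line at 48 h 24 rose and 4 fell (all genes 14.2% and 15.7%). Beyond the control line 2 rose and 14 fell there (all genes 2.98% and 3.92%). At 96 h 4 rose in the control line (all genes 1.56%) and 8 fell in the HBS1L line (all genes 12.5%). Without the filter, falls were 1 in the control and 1 in the HBS1L line at 48 h, and 1 in the HBS1L line at 96 h. The shares of all genes were 5.32%, 3.62% and 2.5%. With limma on the log2 table, the HBS1L line had 1 fall at each time (all genes 11.4% at 48 h and 9.17% at 96 h). With DESeq2 it had 1 at 96 h and 1 rise beyond the control line at 48 h (all genes 8.99% and 1.43%). The cause was not tested.

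With 1 library left out, falls ranged over 1 to 2 (control line, 48 h), 0 to 1 (PELO, 48 h), 1 to 1 (HBS1L, 48 h) and 1 to 5 (HBS1L, 96 h), and rises in the control line at 96 h over 2 to 10. In the full fit the shares of all genes were, in that order, 16%, 23.7%, 11.4% and 8.9% down and 3.89% up. Beyond the control line, falls ranged over 5 to 8 (PELO, 48 h), 5 to 8 (HBS1L, 48 h) and 1 to 6 (HBS1L, 96 h), rises for HBS1L at 96 h over 1 to 2, and genes lower in PELO than HBS1L at 48 h over 1 to 2. For these settings the shares of all genes down beyond the control line were 23.1% to 24.2%, 1.32% to 2.59% and 2.98% to 5.77%. The share up for HBS1L at 96 h was 3.58% to 5.66%. The share lower in PELO than HBS1L at 48 h was 19.5% to 20.6%.

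Over all pairs, same-numbered libraries did not deviate together more than others. The median correlation was -0.08 over 90 pairs (-0.77 to 0.74, 9785 genes). It was 0.04 over 180 pairs with other numbers, which reached 0.76. Some same-numbered pairs went together, such as library 3 of the control line with dox and of the PELO line without dox (0.71 at 48 h, 0.74 at 96 h). A factor shared by part of the groups was not tested. The replicate block gave 1 fall in the HBS1L line at 48 h and 3 falls beyond the control line at 96 h (all genes 11% and 5.08%). It moved no other count of calls among the 41 genes by more than 1.5 times.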
